A study of Mus musculus with 285 samples.

Results

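Cortical layer identity genes are genes, most of them transcription factors, whose expression marks neurons of particular depths of the cerebral cortex. The 8 followed here were Cux1, Cux2, Rorb, Lamp5, Fezf2, Bcl11b, Tbr1 and Foxp2, chosen by gene name from the 19962 genes of a GeoMx mouse whole transcriptome panel, which holds 1 probe for each of them. They were read in the NeuN-stained (neuron) segments of 5 brain regions, which gave 90 of the 285 libraries of the series, and 87 of these met the read and signal criteria of the study. A GeoMx library is a pool of probe tags released from a stained area of a tissue section, so a level is a mean over the cells of that area, and fewer cells of a type cannot be told apart from less RNA per cell.

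The mice were 15 female C57BL/6J animals without transgene or deletion, 3 in each of 5 groups, and each mouse carries its own label, so the mouse is the replicate. CTRL mice were not irradiated. The FLASH 1x10Gy and FLASH 3x10Gy groups had their whole brain irradiated with 6 MeV electrons at ultra-high dose rate, 1 pulse per fraction, in 1 or 3 fractions of 10 Gy. The CONV 1x10Gy and CONV 3x10Gy groups received the same doses at 0.09 Gy/s, and fractions were 48 h apart. The brains were collected 24 h after the final irradiation. The series text gives an age of 9 weeks, and the methods give 10 weeks at irradiation. From each mouse the authors collected neuron segments of the cortex in 2 regions of interest (ROIs) and of CA1, CA3, DG (dentate gyrus) and SO (stratum oriens) in 1 ROI each, on 5 µm sections. ROIs were placed by the morphology stains, and the layer or depth of a cortical ROI is not given in the sources used here. Mice are called A, B and C within each group. The 5 slides do not hold every group, and CTRL mouse C and FLASH 1x10Gy mouse A, on slide 4, are the only CTRL and FLASH 1x10Gy mice that share a slide. The libraries also carry 3 plate labels, D, E and F. Cortical neuron libraries of CTRL were on plates D and E, and those of FLASH 1x10Gy on plates E and F.

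The mammalian cortex is built of stacked layers whose projection neurons differ in their targets. Neurons of the upper layers connect areas of the cortex with each other, layer 4 receives input from the thalamus, layer 5 holds neurons that project to the brainstem and spinal cord, and layer 6 projects back to the thalamus. Several of the factors that establish these identities in development stay expressed in the adult. Some serve other neurons too: Bcl11b (CTIP2) is known from CA1 pyramidal neurons, dentate granule neurons and the striatum.

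Neuron libraries held 157915 to 2022070 counts (median 714453), and 225661 to 2022070 in the cortex. The median was 852217 in the cortex, 437510 in CA1, 854075 in CA3, 1096662 in DG and 384199 in SO. The part of depth in how often a gene passed the limit of quantification in a region was not tested. Levels are CPM, counts relative to the library total after TMM scaling, with the 2 cortical libraries of a mouse summed. The limit of quantification of a library lies 2 geometric standard deviations above the geometric mean of its 209 negative probes, which match no mouse transcript and so measure background. The negative probes had a median of 40.4 CPM per probe in the cortex, 43.0 in CA1, 43.1 in CA3, 33.2 in DG and 41.3 in SO. The share of background, the mean negative count as a percent of the mean gene count, had a median of 56.6% in cortical libraries and 45.8% in DG. The tested genes of the CA1 list (5 of 5), the CA3 list (5 of 5) and the DG list (6 of 6) were each lower in the cortex than in their own region, by edgeR's quasi-likelihood test. The summed CA1 list, led by Mpped1, ran from 658 to 1117 CPM in SO and from 659 to 1178 CPM in CA1, so the neuron segments labelled SO carried CA1 marker genes at about the CA1 level.

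The members sat low in this assay. Of the 29 cortical libraries Tbr1 passed the limit in 23, Lamp5 in 22, Cux1, Cux2 and Rorb in 19 each, Fezf2 in 13 and Bcl11b in 7. Foxp2, a forkhead factor of layer 6, passed in 0 of 87 libraries of any region. Taken as independent, these libraries allow a share of up to 3.45%, but they come from 15 mice, so the bound is too tight. The cortical level of Foxp2 was 0.817 times the negative mean (median over libraries, 1 to 50 counts), so its probe read no signal above background there. Foxp2 failed the detection filter and was not tested, and 7 of the 8 members were among the 10019 genes that were. Cux2 counts in the cortex ran from 8 to 155 per library and Lamp5 counts from 12 to 301, and these small counts bound the precision of every single-library value.

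RefSeq promoter windows (GRCm38.p6, 250 bases before to 50 after a transcription start) were found for 7 of the 8 members, 10 windows in all. The 5 printed belong to 4 genes on which the comparisons turn: Cux1, Cux2, Lamp5 and Bcl11b. Between the 2 cortical libraries of a mouse Cux1, Cux2 and Lamp5 mostly varied together, as did Tbr1 with Cux1 and Lamp5. Bcl11b ran opposite to Cux1 in 10 of 14 mice and to Cux2 and Lamp5 in 9 each. Sequences read 5′ to 3′ on the gene's strand, and capitals mark matches, on either strand, to 4 motifs: AGGTCA (the half-site of Rorb and other nuclear receptors), ATCGAT (a core bound by Cux proteins), GTGTGA (a T-box half-site) and CANNTG (the E-box, bound by neuronal bHLH factors).
Cux1 (chr5:136565932-136566231, minus strand): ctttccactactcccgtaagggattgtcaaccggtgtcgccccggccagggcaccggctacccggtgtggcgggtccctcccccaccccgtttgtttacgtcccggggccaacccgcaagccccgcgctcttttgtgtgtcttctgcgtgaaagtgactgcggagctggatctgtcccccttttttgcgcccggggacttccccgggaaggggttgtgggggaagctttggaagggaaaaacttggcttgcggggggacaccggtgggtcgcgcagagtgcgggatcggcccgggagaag
Cux2, upstream start (chr5:122049802-122050101, minus strand): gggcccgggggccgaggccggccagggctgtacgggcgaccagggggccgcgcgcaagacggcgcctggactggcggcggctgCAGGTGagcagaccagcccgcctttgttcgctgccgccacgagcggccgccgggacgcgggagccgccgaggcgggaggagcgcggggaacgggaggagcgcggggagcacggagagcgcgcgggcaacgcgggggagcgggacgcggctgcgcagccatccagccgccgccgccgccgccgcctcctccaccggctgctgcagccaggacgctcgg
Cux2, downstream start (chr5:122047776-122048075, minus strand): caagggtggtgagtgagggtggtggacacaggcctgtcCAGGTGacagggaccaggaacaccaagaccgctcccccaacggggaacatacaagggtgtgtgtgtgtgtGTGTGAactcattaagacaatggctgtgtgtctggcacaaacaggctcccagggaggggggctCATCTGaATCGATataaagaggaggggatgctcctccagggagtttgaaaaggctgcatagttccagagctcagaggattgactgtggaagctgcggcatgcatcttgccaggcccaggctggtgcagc
Lamp5, first start (chr2:136052089-136052388, plus strand): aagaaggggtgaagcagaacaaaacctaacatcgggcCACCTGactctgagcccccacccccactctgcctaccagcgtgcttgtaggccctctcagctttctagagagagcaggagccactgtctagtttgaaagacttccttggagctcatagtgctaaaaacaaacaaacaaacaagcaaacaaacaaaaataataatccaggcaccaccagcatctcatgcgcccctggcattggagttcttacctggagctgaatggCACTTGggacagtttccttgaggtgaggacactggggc
Bcl11b (chr12:108003365-108003664, minus strand): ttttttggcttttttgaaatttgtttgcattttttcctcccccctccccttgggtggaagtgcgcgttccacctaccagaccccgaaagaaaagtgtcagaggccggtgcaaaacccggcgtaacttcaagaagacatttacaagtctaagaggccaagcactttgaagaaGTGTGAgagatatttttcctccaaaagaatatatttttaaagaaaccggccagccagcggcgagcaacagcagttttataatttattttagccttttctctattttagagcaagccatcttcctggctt
The 2 start regions of Cux2 differed in composition: the upstream window held 48 CpG dinucleotides and 80.3% GC, against 4 CpG for the downstream one, and the median of the 32851 mouse windows was 7 CpG and 52.7% GC. Cux1 carried 25 CpG, Bcl11b 9 and Lamp5 3. The downstream Cux2 window held 1 ATCGAT, which 0.925% of all windows of this length contain, and 1 GTGTGA (14.5% of all windows). Bcl11b held 1 GTGTGA as well. E-boxes, in 72.3% of all windows, occurred in both Cux2 windows and in Lamp5. AGGTCA, in 16.3% of all windows, was in none of the 10 member windows. These are matches of letters and not binding sites.

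The first comparison asked how the members differ between neurons of the cortex and of the hippocampus. All 7 tested members differed between the cortex and the mean of the 4 hippocampal regions: Lamp5, Cux2, Cux1, Fezf2, Tbr1 and Rorb were higher in cortical neurons, and Bcl11b was lower. The test was edgeR's quasi-likelihood test with the mouse as block and Benjamini-Hochberg adjustment over all 10019 genes. With this many regional differences it called 28.3% of all genes, 13.3% higher and 15% lower in the cortex, beside 6 and 1 of the members. The plot of member levels by region gives each mouse.

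**Figure D1:**
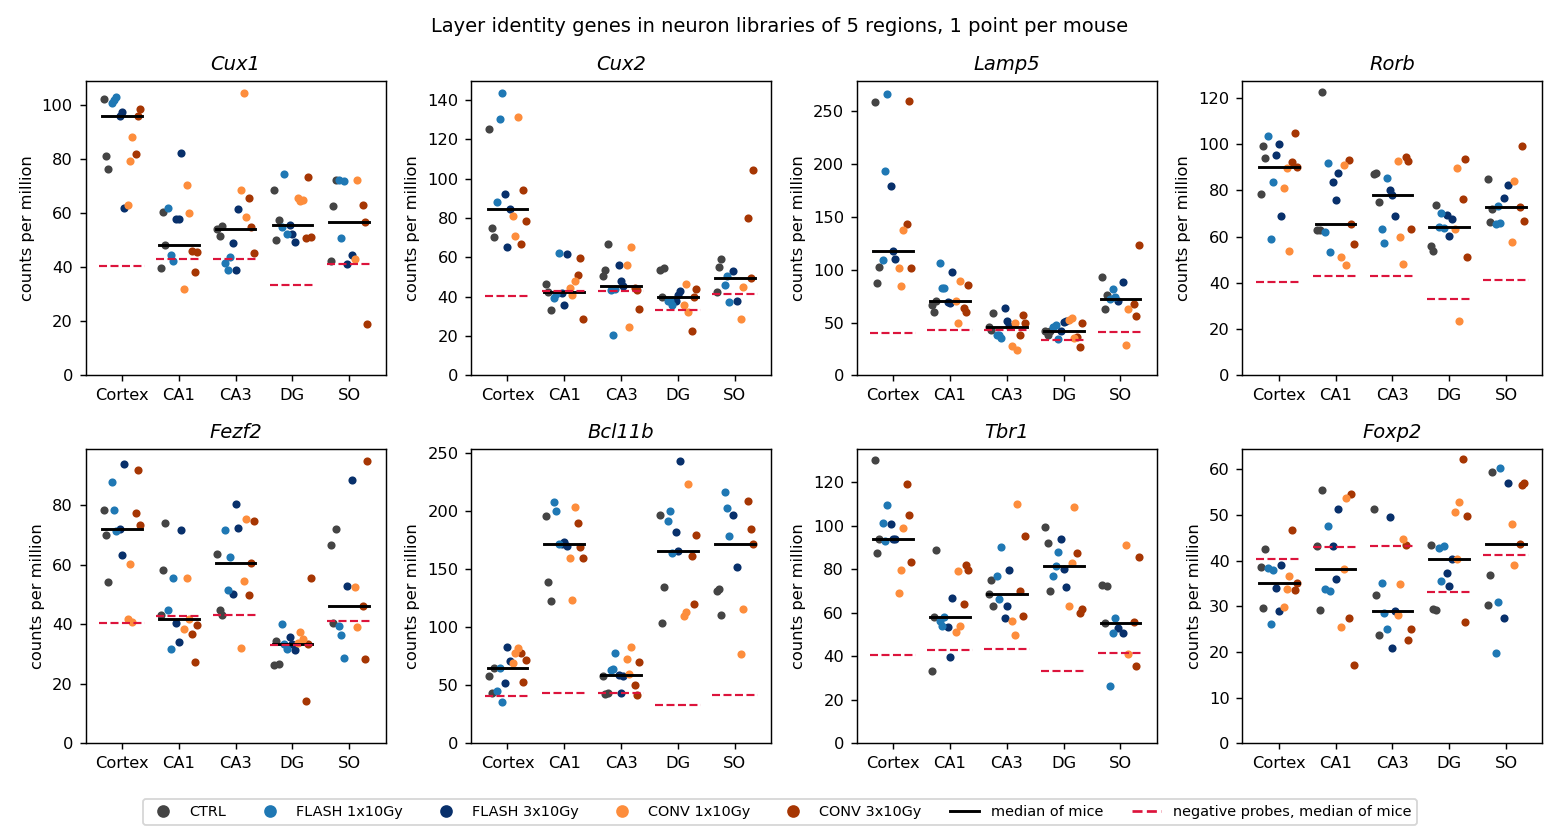
Level of each of the 8 genes in CPM (y axis) for every mouse in cortex, CA1, CA3, DG and SO neurons (x axis), with the median as a black line and the median of the negative probes as a red dashed line. Cux1, Cux2, Rorb, Lamp5 and Tbr1 stood above the background line in the cortex, as did Tbr1 in DG and Bcl11b in CA1, DG and SO. Rorb in CA1, CA3 and SO, Cux1 in DG and Tbr1 in CA3 were also above the negative mean in every mouse. Foxp2 nowhere stood clear of it.

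Lamp5, a lysosome-associated membrane protein that marks layer 2/3 neurons and a class of interneurons, had the largest difference of the 7. In the cortex its lowest, median and highest mouse had 84.2, 118 and 266 CPM. The same values were 49.8, 70.2 and 107 in CA1, 24.1, 46.1 and 63.5 in CA3, 26.7, 42.3 and 54.5 in DG, and 28.7, 72.1 and 123 in SO. All 15 mice were higher in the cortex than in their own CA1, CA3 and DG, and the cortical range did not overlap those of CA3 and DG. Over the hippocampal mean the log2 fold was 1.41 (SE 0.09, 2.66-fold). By region it was 1.77 against CA3, 1.73 against DG, 1.09 against SO and 1.07 against CA1. In CA3 and DG Lamp5 passed the limit of quantification in 0 of 15 libraries each, with library medians of 1.01 and 1.32 times the negative mean, so those folds are against a background floor, and with the negative mean subtracted the one against CA3 was 4.51.

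Cux2, a homeobox factor of layers 2 to 4, ran from 65.4 to 143.5 CPM in the cortex with a median of 84.8. Its medians in the hippocampus were 42.5 in CA1, 45.2 in CA3, 39.6 in DG and 49.5 in SO. There Cux2 was read at background: its library medians were 0.991 times the negative mean in CA1 and 1.17 times in DG, and it passed the limit of quantification in 0 of 15 libraries of CA1 and of CA3, 1 of 15 of DG and 1 of 13 of SO. Each of 15 mice was higher in the cortex than in CA1, CA3 and DG, as were 11 of 13 against SO, and the cortical range overlapped neither CA1 (28.4 to 62.4 CPM) nor DG (22.6 to 54.7 CPM). The log2 fold over the hippocampal mean was 1.01 (SE 0.08), and 1.17, 1.02, 1.01 and 0.86 against DG, CA1, CA3 and SO.

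Cux1, the related homeobox factor, had a narrower cortical range, from 61.9 to 103 CPM with a median of 95.7, over hippocampal medians from 48.1 to 56.6 CPM. It was higher in the cortex in 14 of 15 mice against CA1 and DG and in 13 of 15 against CA3. Its log2 fold was 0.73 (SE 0.06). Cux1 passed the limit of quantification in 0 of 15 CA1, 1 of 15 CA3, 7 of 15 DG and 1 of 13 SO libraries. The library medians there were 1.27, 1.195, 1.66 and 1.29 times the negative mean, so outside DG its hippocampal levels were near background. Rorb, a nuclear receptor of layer 4, differed least: 90.0 CPM was its cortical median and 65.4, 78.1, 64.0 and 72.8 those of CA1, CA3, DG and SO. Its ranges overlapped in every region. Rorb passed the limit of quantification in 5 of 15 CA1, 8 of 15 CA3, 10 of 15 DG and 4 of 13 SO libraries. The log2 fold of Rorb was 0.25 (SE 0.06) over the hippocampal mean and 0.41 over DG, which both passed, while 0.20 over CA1 (adjusted p = 0.0952), 0.16 over CA3 (adjusted p = 0.1) and 0.25 over SO (adjusted p = 0.0644) did not.

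Fezf2, the zinc finger factor that specifies subcerebral neurons of layer 5, had a cortical median of 72.0 CPM (40.9 to 94.0). Its medians were 60.5 in CA3, 46.1 in SO, 41.8 in CA1 and 33.5 in DG, at 1.23, 1.14, 1.06 and 1.01 times the negative mean of the libraries. Fezf2 passed the limit of quantification there in 4 of 15, 0 of 13, 0 of 15 and 1 of 15 libraries. Its hippocampal levels were thus at or near background. DG was lowest for Fezf2 and also for the negative probes. SO stood above CA1 for Fezf2 but below it for the negative probes (medians of 41.3 and 43.0 CPM). Whether background set the order of the Fezf2 levels was not tested. The log2 fold of the cortex was 1.07 over DG, where all 15 mice were higher, and 0.28 over CA3, where 12 of 15 were. In CTRL mice alone Fezf2 passed over DG but not over CA3 (adjusted p = 0.221), CA1 (log2 fold 0.25, adjusted p = 0.705) or SO (0.21, adjusted p = 0.784), and the CA3 call was also lost with background subtracted (adjusted p = 0.0576). Tbr1, the T-box factor of layer 6 corticothalamic neurons, had medians of 94.0 CPM in the cortex, 81.7 in DG, 68.7 in CA3, 57.9 in CA1 and 55.3 in SO. Its log2 fold of the cortex was 0.81 over SO, 0.75 over CA1, 0.49 over CA3 and 0.26 over DG, and 0.57 (SE 0.06) over the mean. Tbr1 passed the limit of quantification in 12 of 15 DG libraries and in 0 of 15 CA1 libraries.

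Bcl11b, the zinc finger factor CTIP2 of layer 5 subcerebral neurons, was the exception among the members. Its lowest, median and highest mouse had 35.4, 64.5 and 82.7 CPM in the cortex, 122, 171 and 208 in CA1, 104, 165 and 243 in DG, and 76.6, 171 and 216 in SO. CA3 stood with the cortex at 41.6, 58.4 and 82.5 CPM. In 0 of 15 mice was the cortex above CA1 or DG, and in 0 of 13 above SO, whereas 9 of 15 were above CA3. The log2 fold of the cortex was −1.45 against CA1, −1.42 against DG and −1.39 against SO, and −1.03 (SE 0.08, adjusted p = 3.69e-20) against the hippocampal mean. Against CA3 it was 0.13 (SE 0.11, adjusted p = 0.426). Bcl11b passed the limit of quantification in 7 of 29 cortical and 3 of 15 CA3 libraries, with library medians of 1.54 and 1.31 times the negative mean. Both levels were thus near background, and the lack of a call does not show that they are equal. The neighbours CA1, SO and DG in the order of Bcl11b levels did not differ past the threshold, nor did the cortex and CA3.

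Counted by region, 6 members differed between the cortex and CA1, where 21.1% of all genes did, 5 between the cortex and CA3 (29% of genes), 7 between the cortex and DG (47.3%) and 6 between the cortex and SO (18.4%). Within the hippocampus 3 members differed between CA1 and CA3 (23.1% of genes), namely Bcl11b with a log2 fold of 1.58, Lamp5 with 0.70 and Fezf2 with −0.36. Between CA1 and DG 3 members differed (33.2%): Lamp5 with 0.65, Fezf2 with 0.43 and Tbr1 with −0.49. Between CA3 and DG 4 did (51.8%), with Fezf2 at 0.79 and Bcl11b at −1.55 as the largest and Rorb at 0.25 and Tbr1 at −0.23 as the smallest. Another 3 differed between CA3 and SO (19.4%), among them Bcl11b at −1.52, and 3 between DG and SO (25.2%), Fezf2, Lamp5 and Tbr1. CA1 and SO differed in 0 members and in 1 gene of all (0.00998%), with 0 members at an unadjusted p under 0.05, and no Cux1 or Cux2 difference passed in any pair of hippocampal regions. The negative probes were lower in DG (median 33.2 CPM) than in CA1 (43.0), CA3 (43.1) and SO (41.3). The part of background in the small folds against DG was not tested. With the negative mean subtracted, 12 of the 42 tests between hippocampal regions were called, against 16 without subtraction.

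**Figure D2:**
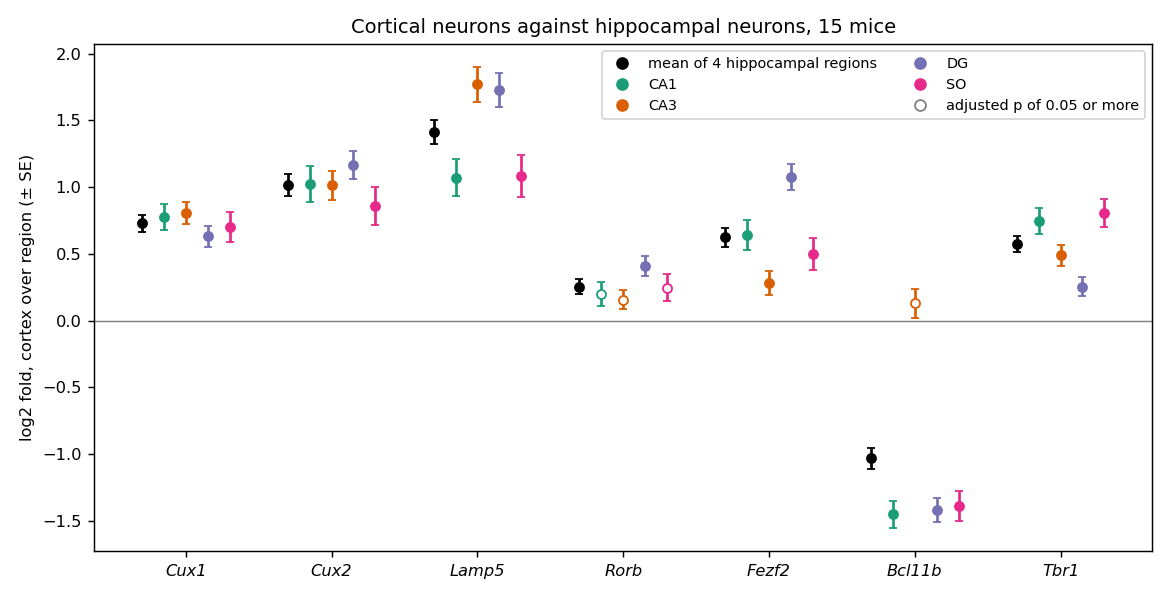
log2 fold of cortex over each hippocampal region (y axis, with SE bars) for the 7 tested genes (x axis), with open symbols where the adjusted p is 0.05 or more. Lamp5 and Cux2 were higher over every region, Bcl11b was lower except against CA3, and Rorb was open except against DG.

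Subtraction of background enlarged these folds, which follows from arithmetic when a similar amount is taken from both sides of a ratio. The larger values are therefore no added evidence. Some rest on little or no remaining signal, since library medians were 0.991 times the negative mean for Cux2 in CA1, 1.01 for Lamp5 in CA3 and 1.01 for Fezf2 in DG. After the mean negative count was subtracted from each library, the log2 fold over the hippocampal mean was 3.00 for Cux2, 2.93 for Lamp5, 2.35 for Fezf2, 1.95 for Cux1, 1.28 for Tbr1, 0.61 for Rorb and −1.62 for Bcl11b, with the directions and the 7 calls as before. The negative probes themselves were higher in the cortex than in DG by 0.26 on the log2 scale (mean over mice, SD 0.22, 14 of 15 mice) and lay within 0.11 of the other regions, on average. The Tbr1 difference of 0.26 over DG was therefore no larger than that of the negative probes. Within the CTRL mice alone 6 members were called with the same signs, and Rorb was not (log2 fold 0.25, adjusted p = 0.282). A strict detection filter kept only 2 of the members for testing.

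Marker lists of neurons and of other cell types also differed between regions. Of the list for all neurons 4 of 6 genes were higher in the cortex than in the hippocampal mean, while 4 of 5 excitatory neuron genes were lower. Higher were 5 of 9 interneuron genes, 4 of 5 astrocyte genes and 5 of 6 oligodendrocyte genes. Of all genes 13.3% were called higher and 15% lower. The summed astrocyte list, led by Slc1a2, ran from 362 to 618 CPM in the cortex, from 258 to 353 CPM in CA1 and from 234 to 503 CPM in CA3, where it overlapped the cortex. The interneuron list, led by Cck, had medians of 912 CPM in the cortex, 966 in SO, 813 in CA3, 792 in CA1 and 552 in DG. The part of these cell types in the differences of the members was not tested.

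Other genes known for cortical layers, 30 in 4 lists, moved less uniformly. Of the 8 genes of layer 2/3 and callosal neurons 6 were higher in the cortex and 1 was lower, with a median log2 fold of 0.30 against −0.01 for all genes. Rasgrf2 was higher by 0.47 and Pou3f2 by 0.45, and Mdga1 fell by 1.05. Of 2 layer 4 genes tested Whrn was higher (0.40) and Rspo1 was not called (−0.01). The layer 5 list had 3 of 6 tested genes higher, Pcp4 (1.15), Ldb2 (0.71) and Etv1 (0.62), and 2 lower, with Crym at −0.96. Pcp4 was a mean of unlike regions: its medians were 387 CPM in the cortex, 61.5 in CA1 and 524 in DG. Other folds of these lists averaged unlike regions too. The medians of Rasgrf2 were 98.3 CPM in the cortex, 59.0 in CA1 and 109 in DG. Those of Mdga1 were 51.0, 143 and 56.2, and those of Crym 73.8, 178 and 71.9. Of 4 tested genes of layers 6 and 6b 0 were higher, Hs3st4 fell by 0.62, and Rprm (0.13), Nxph4 (0.13) and Nr4a2 (0.10) were not called. Hs3st4 had a median of 682 CPM in CA3, against 126 in the cortex, 146 in CA1, 146 in SO and 89 in DG. The layer genes were thus most often higher in the cortex where they belonged to the upper-layer list, and the difference between lists was not tested.

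The 2 cortical libraries of a mouse were kept apart to see how far the members vary within an animal. In the 14 mice with both libraries the SD between the libraries of a mouse was 0.60 on the log2 scale for Lamp5, beside 0.21 expected from counting alone. The same pair of values was 0.49 and 0.24 for Cux2, 0.42 and 0.24 for Cux1, 0.50 and 0.28 for Fezf2, 0.48 and 0.27 for Bcl11b, 0.30 and 0.25 for Rorb and 0.30 and 0.23 for Tbr1. The SD of mouse means was 0.54 for Lamp5, where the spread within mice alone would give 0.42. For Rorb it was 0.27 against 0.21, and for Cux2 0.37 against 0.35. Fezf2 (0.36 and 0.36), Tbr1 (0.23 and 0.21) and Bcl11b (0.33 and 0.34) lay near that value, and Cux1 (0.21 and 0.30) below it. For most members the spread between mice was thus about what the spread within a mouse gives, with Lamp5 and Rorb above it, as a description with no test.

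**Figure D3:**
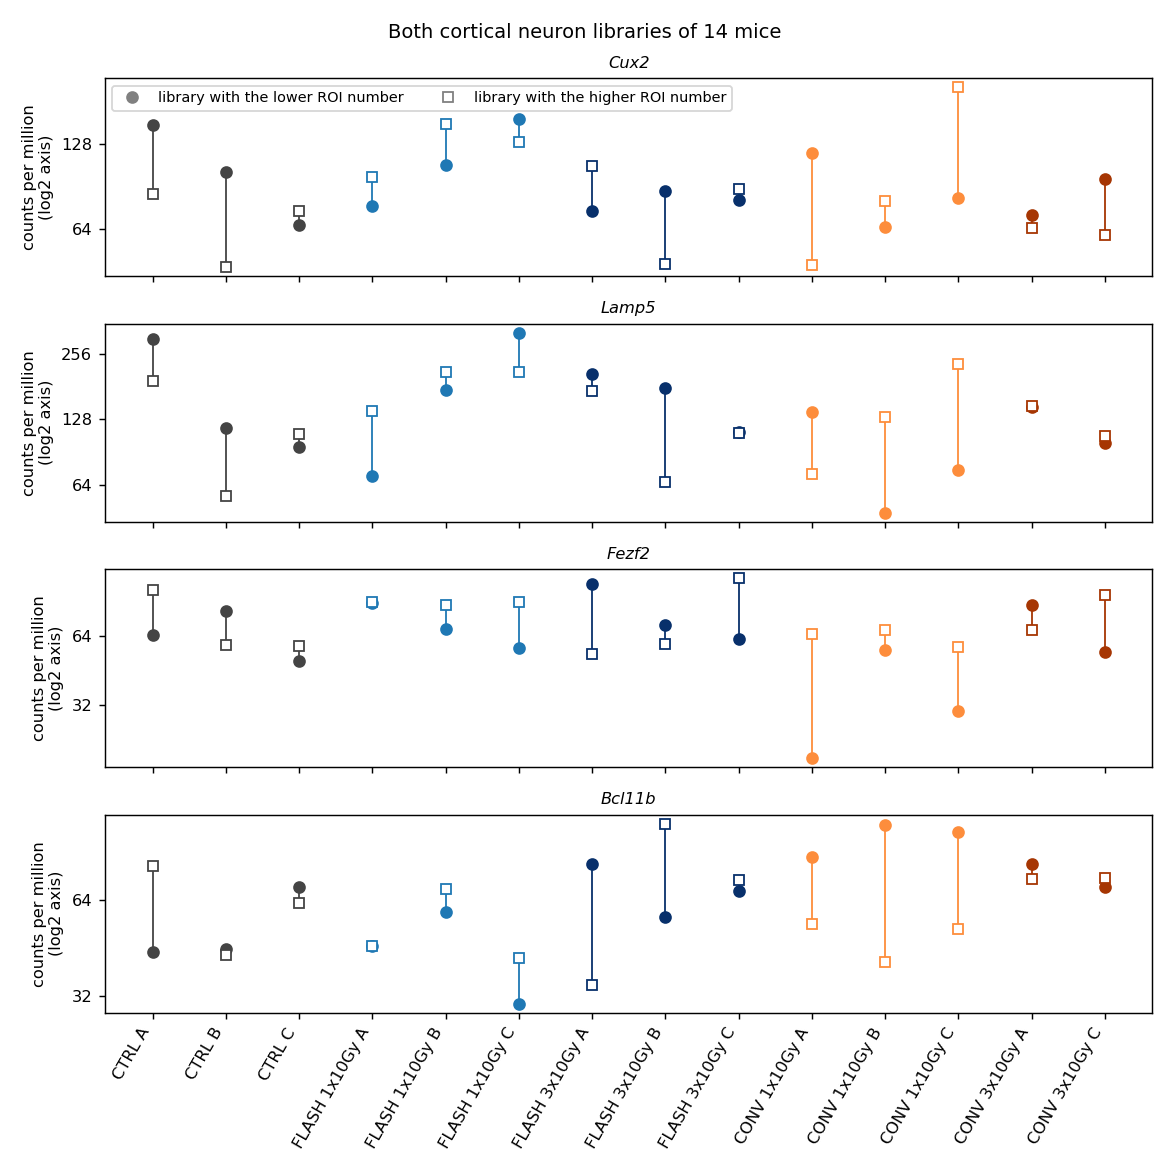
CPM (y axis, log2 scale) of Cux2, Lamp5, Fezf2 and Bcl11b in both cortical neuron libraries of 14 mice (x axis), with a line joining the libraries of a mouse. Lamp5 had the largest SD within mice of the 4 genes, the widest single gap was that of Fezf2 in CONV 1x10Gy mouse A, and Bcl11b was often low in the library of a pair in which Lamp5 was high.

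In some mice the upper-layer genes and Bcl11b changed places between the libraries. In CONV 1x10Gy mouse C, Lamp5 had 74.98 and 229 CPM and Cux2 82.5 and 203, while Bcl11b had 105 and 52.0. In FLASH 3x10Gy mouse B, Lamp5 had 179 and 66.0, Cux1 145 and 56.4, and Bcl11b 56.7 and 111. In CONV 1x10Gy mouse B, Lamp5 had 47.5 and 131 and Bcl11b 111 and 40.9. The first library was the low one for Lamp5 and the high one for Bcl11b in both CONV mice, and the reverse held in the FLASH mouse. In others the genes went the same way, as in CONV 1x10Gy mouse A, where Lamp5 had 137 and 71.5 CPM, Cux2 118.5 and 47.7 and Bcl11b 87.3 and 53.6. In CONV 3x10Gy mouse A the libraries were alike, with 145 and 147 CPM of Lamp5 and 83.5 and 74.4 of Bcl11b.

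Counted over the 14 mice, Cux1 and Tbr1 differed in the same direction in 13, Lamp5 and Tbr1 in 12, Cux1 and Cux2 in 11, Cux1 and Lamp5 in 11, and Cux2 and Lamp5 in 10. Bcl11b ran opposite to Rorb in 11 mice, to Cux1 in 10 and to Lamp5 and Cux2 in 9 each. With Fezf2, its layer 5 companion, Bcl11b went the same way in 8 mice and the opposite way in 6. Over the 14 differences Pearson's r was 0.848 for Cux1 and Lamp5, 0.815 for Cux2 and Lamp5, 0.782 for Cux1 and Cux2, −0.709 for Cux1 and Bcl11b and 0.0484 for Fezf2 and Bcl11b. These values are a description, since the members share each library, its depth and its background. Fezf2 and Bcl11b were each higher in the library with the smaller background share in 11 of 14 mice, and Cux2 and Lamp5 in 8 of 14. Across the 29 cortical libraries r with the background share was −0.593 for Cux2, −0.52 for Lamp5, −0.417 for Cux1, 0.0734 for Bcl11b and 0.246 for Rorb. The part of background in the shared pattern was not tested.

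Over the same 29 libraries Cux2 and Lamp5 correlated at 0.756, Cux1 and Lamp5 at 0.656, Cux1 and Cux2 at 0.654, and Cux1 and Bcl11b at −0.493. Of all 10019 genes those most like Lamp5 there were Egr1 (r = 0.877), an immediate early gene, Atp2b2 (0.858), a calcium pump, and Cabp1 (0.835). Closest to Cux2 were Spred1 (0.758), Lamp5 itself (0.756) and Epop (0.755). Galnt9 led for Fezf2 (0.822), Nap1l4 for Tbr1 (0.791), Kcnq5, a potassium channel subunit, for Cux1 (0.786) and Rnf41 for Rorb (0.665). For Bcl11b the closest were Tubb2b (0.688), the layer 5 list gene Crym (0.678) and Psip1 (0.606). Over all 87 libraries, where the regions set most of the pattern, Doc2b was closest to Bcl11b (0.859), Egr1 to Lamp5 (0.827), Cobl to Cux2 (0.779), Arhgap32 to Cux1 (0.719), Nrsn1 to Fezf2 (0.712), Aifm3 to Tbr1 (0.688) and Trib1 to Rorb (0.585).

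The second question was whether irradiation moved the members in cortical neurons 24 h after the last dose. Slide was a factor of this fit, and the 4 irradiated groups share the CTRL mice. In 35 tests, 7 members in each irradiated group and in all irradiated mice together, edgeR called 0 and DESeq2 called 0. All genes were called as rarely: 0% after FLASH 1x10Gy, 0.00998% after FLASH 3x10Gy, 0% after CONV 1x10Gy, 0% after CONV 3x10Gy and 0% over all irradiated mice. Of the 35 tests 3 had an unadjusted p under 0.05, beside 7.15% of the tests over all genes, and these 3 were all of Cux2. With plate in place of slide that count was 0 of 35. It was also 0 of 35 in limma with single libraries and the mouse as random block.

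Cux2 had 125, 74.7 and 70.4 CPM in CTRL mice A, B and C, 88.0, 130 and 143.5 after FLASH 1x10Gy, and 80.8, 70.9 and 131 after CONV 1x10Gy. After 3 fractions it had 92.1, 65.4 and 84.8 (FLASH) and 67.0, 94.4 and 78.3 (CONV). Every irradiated group overlapped CTRL, in which mouse A stood apart from the other mice. The log2 fold over CTRL was 0.70 after FLASH 1x10Gy (SE 0.27, adjusted p = 0.238), 0.05 after CONV 1x10Gy (SE 0.26), −0.40 after FLASH 3x10Gy (SE 0.19, adjusted p = 1) and −0.46 after CONV 3x10Gy (SE 0.20, adjusted p = 0.999). These values rested on single mice and on the slide term. The first was 0.38 without a slide term, 0.34 without CONV 1x10Gy mouse B and 1.22 without FLASH 1x10Gy mouse A. The FLASH 3x10Gy value was −0.16 with slide as a random block, −0.16 without CTRL mouse A and −0.65 without CTRL mouse B, and the CONV 3x10Gy value ran from −0.81 without its mouse B to −0.10 without its mouse A. Lamp5 was highest in CTRL mouse A as well, at 258 CPM beside 87.3 and 103 in mice B and C, and reached 109, 193 and 266 after FLASH 1x10Gy. With that spread its SE was 0.76 for a log2 fold of 0.77.

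**Figure D4:**
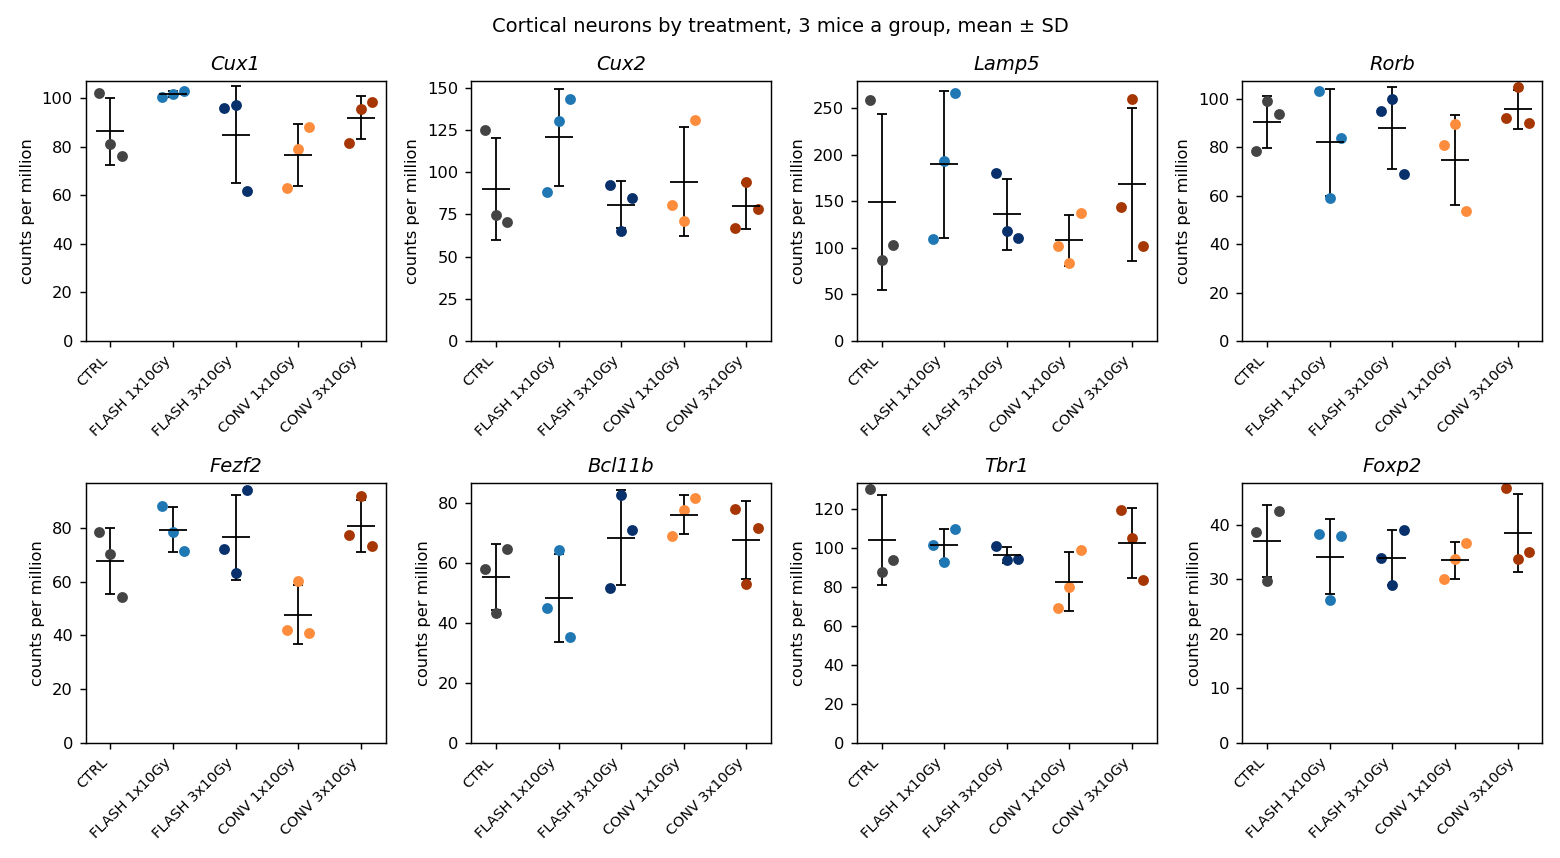
CPM in cortical neurons (y axis) of the 8 genes in CTRL, FLASH and CONV mice at 1x10Gy and 3x10Gy (x axis), 3 mice per group as points, with the mean and SD as bars. Every irradiated group of Cux2 overlapped CTRL, while Bcl11b after FLASH 1x10Gy (35.4 to 64.3 CPM) lay below CONV 1x10Gy (68.9 to 81.7 CPM). The negative probes had 35.7 to 37.8 CPM in the FLASH 1x10Gy mice.

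For the other members the log2 folds over CTRL of the single groups lay between −0.37 and 0.40 in the cortex. Cux1 had 102, 81.0 and 76.3 CPM in CTRL and 100.5, 102 and 103 after FLASH 1x10Gy, a log2 fold of 0.40 (SE 0.25, adjusted p = 0.421). Bcl11b had 57.9, 43.2 and 64.5 CPM in CTRL and log2 folds of −0.37 after FLASH 1x10Gy (SE 0.32) and 0.29, 0.33 and 0.35 after FLASH 3x10Gy, CONV 1x10Gy and CONV 3x10Gy. Foxp2, not tested, stayed between 26.2 and 46.7 CPM in all 15 mice, at the level of the negative probes (35.7 to 53.1 CPM). No gene of the 4 other layer lists was called in any irradiated group against CTRL.

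Between the modalities at the same dose the members lay furthest apart after 1x10Gy. Here edgeR called 0 of 7 members and 6 of all genes (0.0599%), and DESeq2 called 0 members. At an unadjusted p under 0.05 stood 4 of 7 members, Bcl11b, Cux2, Fezf2 and Cux1, beside 12% of all genes. The 3 mice of each group did not overlap for 3 of 7, Bcl11b, Fezf2 and Cux1, beside 16.8% of all genes.

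Bcl11b had 44.98, 64.3 and 35.4 CPM after FLASH 1x10Gy and 68.9, 77.5 and 81.7 after CONV 1x10Gy, a log2 fold of −0.70 for FLASH over CONV (SE 0.23, adjusted p = 0.213). Fezf2 had 88.0, 78.5 and 71.4 CPM after FLASH 1x10Gy and 41.9, 60.4 and 40.9 after CONV 1x10Gy, a log2 fold of 0.59 (SE 0.20, adjusted p = 0.218). Cux2 gave 0.65 (SE 0.20, adjusted p = 0.186), with CONV mouse C at 131 CPM inside the FLASH range, and Cux1 gave 0.41 (SE 0.18, adjusted p = 0.348). Bcl11b was thus lower, and Fezf2, Cux2 and Cux1 were higher, in FLASH 1x10Gy than in CONV 1x10Gy, none past the adjusted threshold. The low sides of the Bcl11b and Fezf2 folds reached background. The negative probes had 35.7 to 37.8 CPM in the FLASH 1x10Gy mice and 40.0 to 42.6 CPM in the CONV 1x10Gy mice. Single mice set the size of these folds: Cux2 was 0.06 without CONV 1x10Gy mouse B, Fezf2 was 0.30 without FLASH 1x10Gy mouse A and 1.31 without CONV 1x10Gy mouse B, and Bcl11b was −0.47 without FLASH 1x10Gy mouse C. The cortical libraries of FLASH 1x10Gy had background shares of 49.0 to 54.6%, those of CONV 1x10Gy 47.9 to 65.2% and those of CTRL 43.8 to 79.1%. With the background share as a covariate the log2 folds were −0.92 for Bcl11b, 0.55 for Cux2, 0.44 for Fezf2 and 0.31 for Cux1.

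Cux2, near 0 without CONV 1x10Gy mouse B (log2 fold 0.06), passed the threshold in this comparison without CTRL mouse B (log2 fold 0.70, adjusted p = 0.0297) and without libraries over 70% background share, which are 3 CTRL libraries in the cortex (0.75, adjusted p = 0.0287). Crym, which encodes a thyroid hormone binding protein and is in the layer 5 list, was called: it had 62.2, 82.3 and 70.1 CPM after FLASH 1x10Gy, 92.8, 154 and 140 after CONV 1x10Gy and 52.9, 73.8 and 66.0 in CTRL, and its log2 fold was −0.92 for FLASH over CONV (SE 0.18, adjusted p = 0.0103). The call was lost in 10 of 28 alternatives, among them DESeq2 (adjusted p = 0.365), no slide term (adjusted p = 0.124) and the fits without FLASH 1x10Gy mouse B, FLASH 1x10Gy mouse C or CONV 1x10Gy mouse B (adjusted p = 0.658 for the last). At 3x10Gy 0 members and 0% of genes were called between FLASH and CONV, and 0 of 7 members had an unadjusted p under 0.05. The largest of those log2 folds was −0.32 for Lamp5 (SE 0.50).

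In hippocampal neurons edgeR called 0 of 112 member tests, 7 members in 4 regions and 4 irradiated groups against CTRL, and DESeq2 called 0. In the order FLASH 1x10Gy, FLASH 3x10Gy, CONV 1x10Gy and CONV 3x10Gy the share of all genes called was 0.24%, 0.00998%, 0.0499% and 0% in CA1, 3.46%, 0%, 0% and 0% in CA3, 5.62%, 0%, 0% and 0% in DG and 0.18%, 0.0898%, 0.0499% and 0.18% in SO. Of the 112 tests 8 had an unadjusted p under 0.05, a smaller share than the 7.53% of all genes. Rorb was in 3 of the 8, with log2 folds of −1.07 after FLASH 1x10Gy and −0.75 after CONV 1x10Gy in CA1 and 0.50 after CONV 3x10Gy in DG. Bcl11b was in another 3, with 0.83 after FLASH 1x10Gy in CA1, 0.57 after FLASH 1x10Gy in DG and 0.60 after CONV 3x10Gy in SO. The others were Fezf2 (−0.99 in CA1) and Cux2 (−0.75 in DG), both after FLASH 1x10Gy. Without a slide term the first 2 Bcl11b values were 0.32 and 0.33, and the Rorb value in DG was 0.08. Without libraries over 70% background share the Rorb value after FLASH 1x10Gy in CA1 was 0.02. Bcl11b in DG passed the threshold without CTRL mouse A (0.64, adjusted p = 0.0424) and was 0.86 without CTRL mouse C (adjusted p = 0.428).

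Whether the response of the cortex differed from that of the hippocampus was tested with the mouse as block and the 4 hippocampal regions of a mouse summed. Of 28 tests edgeR called 0, and DESeq2 called 0. All genes were called in 0% of tests for FLASH 1x10Gy, 0% for FLASH 3x10Gy, 0.02% for CONV 1x10Gy and 0% for CONV 3x10Gy. An unadjusted p under 0.05 was found in 3 of the 28, beside 3.84% of tests over all genes: Cux2 after FLASH 1x10Gy, where the cortical fold was higher by 0.71 (SE 0.21, adjusted p = 1), Bcl11b after FLASH 1x10Gy at −0.61 (SE 0.22, adjusted p = 1), and Cux1 after CONV 1x10Gy at −0.43 (SE 0.21, adjusted p = 0.816). None of these responses differed between cortex and hippocampus past the threshold.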

How the data were processed

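The authors collected GeoMx whole transcriptome libraries, and the deposited counts are whole numbers per probe, made by the instrument's pipeline (reads trimmed, stitched, matched to probe tags and counted once per molecular identifier), not scaled. The submitters' processing notes name R 4.4.0 and edgeR. Of 285 libraries 284 were read, 224 were kept by the study's limits (at least 1000 raw reads, 80% trimmed and stitched, 75% aligned, 50% saturation and 5% of genes over the quantification limit), and 87 of 90 neuron libraries were used. The study's limits on nuclei and area were not applied. A probe outside the panel list (0.00869% of counts) was left out. Genes above the limit in 5% of kept libraries, 10019, were tested with edgeR 4.0.16 (quasi-likelihood, robust, 2-sided, TMM) in R 4.3.3, on counts summed per mouse and region, with Benjamini-Hochberg adjusted p under 0.05. Regions were compared with the mouse as block, since the same animals gave each region, and treatments with slide as factor. Within-mouse SD is the root of the mean squared difference over 2, and the counting SD follows from the counts. The fits were tested on simulated data. DESeq2 1.42.0, limma 3.58.1, other scalings, filters and background settings, and each mouse left out in turn, were alternatives. Members and lists were chosen with earlier results of these data known. The text names the 8 members, up to 4 genes per layer list by smallest p, up to 3 similar genes per member and the highest gene of a marker list, and Crym was singled out in the treatment comparison after its values were seen. Some genes that meet the rule are not reported here, though list counts include them. The methods name 18 purchased and irradiated mice, and the labels hold 15.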

Additional observations from a re-analysis of the deposited data

Results flagged for a closer look

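In 40 groups of cortical libraries (8 members in 5 treatments) 2 held a library far from the others of its group by Dixon's test, and chance gives about 2. The test takes the 5 or 6 libraries of a group as independent, but they come from 3 mice, so that chance count is only a rough guide. Foxp2 in FLASH 3x10Gy was 6.23 CPM in 1 library of mouse C, against 29.1 to 59.1 CPM in the other libraries of the group, where counts were small and at background. Tbr1 in CONV 3x10Gy was 64.0 CPM in 1 library of mouse C, against 107 to 122 CPM in the others. Of the 28 tests of the response of the cortex against that of the hippocampus 0 passed the adjusted threshold.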

How the results depend on the processing

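The 7 member calls between cortex and hippocampal mean became 2 under the strict detection filter, which left 2 members to test, and the 24 over single regions became 6. The 16 between hippocampal regions became 4 under that filter and 7 in CTRL mice alone. With no replicate block, slide standing in for the mouse, the calls were 7, 24 and 16, so the pairing by mouse changed no count of calls there. Against CTRL in the hippocampal regions 1 call appeared without CTRL mouse A, and between FLASH and CONV in the cortex 1 appeared without CTRL mouse B and 1 without libraries over 70% background share, the last setting chosen after seeing the data. Leaving out each mouse gave 7 to 7, 24 to 26 and 15 to 17 regional calls, 0 to 0 in the cortex against CTRL, 0 to 1 in the hippocampal regions, 0 to 1 for FLASH against CONV and 0 to 0 for the cortex against the hippocampus. Without CTRL mouse C, and without libraries over 70% background share, 14 of 16 hippocampal contrasts could be fitted. Rorb in CA1 after FLASH 1x10Gy turned from −1.07 to 0.015 without those libraries, and the cause was not tested. Of the values of single genes, 1393 kept direction and side of the threshold, 18 lost the threshold and 17 gained it. Depth limits single libraries to small counts per member.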
